A study of Mus musculus with 17 samples.

Results

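Chemokines are small secreted proteins that guide the movement of leukocytes, and the genes described here were all those whose symbol began with Ccl, Cxcl, Xcl, Cx3cl, Ccr, Cxcr, Xcr, Cx3cr or Ackr followed directly by a number. The rule found 67 Ensembl genes in the deposited gene lists, of which 4 had no transcript in any library, leaving 63 members of the 30406 genes shared by the lists. They comprised 26 CC ligands, 12 CXC ligands, 2 ligands of the XC and CX3C families, 19 receptors and 4 atypical receptors. A total of 6 members had fewer than 10 unique molecular identifiers (UMIs, the counted transcripts) over all 17 libraries, and the duplicate gene models of Ccl21a, Ccl21b, Ccl21c, Ccl27a and Ccl27b share near-identical sequence, so reads could be split among them and their levels are uncertain.

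The 17 single-cell libraries came from GFP+ cells sorted from digested skin or kidney of 8-week-old mice that carried PDGFRb-Cre and the Z/EG reporter, in which cells that have expressed PDGFR-β become green. SARATg mice also carried a transgene for human SARA, an endosomal adaptor protein encoded by ZFYVE9, behind a CAG promoter and a stop cassette that the same Cre removes, and SARAWT mice did not carry it. In skin there were 3 SARAWT libraries after PBS, 3 SARAWT libraries after bleomycin (20 mg/kg subcutaneously 3 times a week for 2 weeks), 1 SARATg library after PBS and 1 SARATg library after bleomycin. This schedule is that of the sample records. The paper instead describes daily bleomycin for 2 weeks, with skin taken 1 week after the injections ended. In kidney there were 3 SARAWT libraries after vehicle, 3 SARAWT libraries after aristolochic acid (5 mg/kg intraperitoneally 3 times a week for 3 weeks), 2 SARATg libraries after vehicle and 1 SARATg library after aristolochic acid. The labels give replicate numbers but do not state that each library came from its own mouse, so p-values measure the spread between these libraries, which may be technical.

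SARAWT and SARATg are used as the labels give them. Mouse Zfyve9 went against 3 labels, since the library labelled SARAWT PBS 3 held 621 CPM (counts scaled to 1000000 per library) against 11.9 to 26.0 CPM in the other SARAWT PBS libraries, the library labelled SARAWT aristolochic acid 1 held 167 CPM against 12.9 and 13.4 CPM, and the library labelled SARATg aristolochic acid 1 held 20.7 CPM against 91.7 and 93.4 CPM in the SARATg vehicle libraries. The transgene is of human sequence, and a human ZFYVE9 entry was in the gene lists of 4 libraries only. In SARAWT PBS 1 and 2 and bleomycin 1 and 2 it held 843, 188, 87.8 and 113 CPM, although these libraries are labelled SARAWT, so that with PBS 3 the transgene or its mouse counterpart went against the label in 5 of the 6 SARAWT skin libraries. SARAWT PBS 2 shared 55.5% of its cell barcodes with other libraries and had a median of 1105 UMIs per cell, and SARAWT PBS 1 and bleomycin 1 and 2 shared 7.38%, 17.6% and 22.1%. SARAWT kidney vehicle 3 stood apart from vehicle 1 and 2, with 2.86, 3.67 and 43.3% of cells in the T cell gate in vehicle 1, 2 and 3. Total UMIs ranged from 3355217 to 137093834 per library, and 781 to 11773 cells were kept. Since GFP marks past as well as present expression of PDGFR-β, transcripts cannot check the sort. Pdgfrb over all cells was 7.08 to 59.6 CPM in skin and 0.187 to 3.00 CPM in kidney, and Ptprc, the pan-leukocyte gene, was 342 to 585 CPM and 53.2 to 514 CPM.

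As background, inflammatory chemokines such as the CXC ligands Cxcl1 and Cxcl2, which attract neutrophils through Cxcr2, and the CC ligands Ccl2 and Ccl7, which attract monocytes through Ccr2, are made by activated macrophages and stromal cells. Homeostatic chemokines such as Cxcl12, Ccl19 and Ccl21a hold or guide leukocytes in resting tissue through Cxcr4 and Ccr7. Receptors are G protein-coupled and belong mostly to leukocytes, whereas the atypical receptors bind chemokines without G protein signaling and remove or transport them.

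Upstream sequences are shown for Cxcl1, Cxcl2 and Cxcl3, which lie in 1 cluster on chromosome 5 and were all higher in skin than in kidney macrophages as described further on, and for the fractalkine receptor gene Cx3cr1, which was lower. Each run gives the 250 bases before the gene start in RefSeq (GRCm38.p6), 5′ to 3′ on the gene's strand, and capitals mark matches on either strand to a κB-like pattern (GGNNNTTCC) or an ISRE-like pattern (GAAANNGAA).
Cxcl1 (chr5:90890995-90891244, plus strand): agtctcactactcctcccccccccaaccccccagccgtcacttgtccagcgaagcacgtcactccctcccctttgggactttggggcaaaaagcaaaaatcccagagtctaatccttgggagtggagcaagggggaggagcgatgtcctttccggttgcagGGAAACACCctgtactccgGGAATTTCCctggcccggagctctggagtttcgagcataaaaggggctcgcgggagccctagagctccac
Cxcl2 (chr5:90903649-90903898, plus strand): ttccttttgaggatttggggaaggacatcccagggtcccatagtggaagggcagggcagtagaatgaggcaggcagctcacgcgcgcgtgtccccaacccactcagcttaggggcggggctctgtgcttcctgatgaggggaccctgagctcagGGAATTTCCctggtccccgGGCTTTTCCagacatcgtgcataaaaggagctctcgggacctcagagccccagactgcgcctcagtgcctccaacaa
Cxcl3 (chr5:90785851-90786100, plus strand): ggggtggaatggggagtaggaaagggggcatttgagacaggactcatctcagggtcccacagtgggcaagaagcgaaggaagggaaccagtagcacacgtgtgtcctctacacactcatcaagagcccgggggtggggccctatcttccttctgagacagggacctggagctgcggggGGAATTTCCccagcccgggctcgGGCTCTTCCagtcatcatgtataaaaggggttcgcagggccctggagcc
Cx3cr1 (chr9:120068297-120068546, minus strand): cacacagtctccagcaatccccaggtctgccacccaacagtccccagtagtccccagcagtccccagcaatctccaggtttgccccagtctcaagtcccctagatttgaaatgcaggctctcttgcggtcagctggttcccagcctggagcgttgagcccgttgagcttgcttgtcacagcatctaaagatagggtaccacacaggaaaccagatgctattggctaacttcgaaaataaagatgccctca
The windows of Cxcl1, Cxcl2 and Cxcl3 held 2 κB-like matches each, and that of Cx3cr1 held neither pattern. A window was matched for 5 of the 9 members called higher in skin macrophages and for 3 of the 4 called lower. The κB-like pattern stood in 4 of these 5 and in 0 of these 3, and the ISRE-like pattern in 1 and 1. These windows are too few for a comparison. That of Cxcr4, higher in skin macrophages, also held neither pattern, and that of Cxcl14, lower there, held an ISRE-like match. A RefSeq window was matched for 46 of the 63 members. The κB-like pattern stood in 15 of these 46 windows (32.6%) and in 15.6% of 27025 windows of all genes, and the ISRE-like pattern in 8 of 46 (17.4%) and in 7.16%. Such matches describe letters in these windows and are not measured binding sites.

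Levels are given as CPM within cells assigned to a type by 10 marker genes per type, none of them a member, and a library entered a gate with at least 10 cells. Gates of the same library share its depth and its free RNA, that is transcripts released from other cells. No correction for free RNA was made, and its part in the gate levels was not tested. Assignments covered 71.4% of 30085 kept skin cells and 90.1% of 71324 kept kidney cells, and 16.4% and 6.93% of assigned cells lay at the assignment limit. Means over libraries pool all groups of a tissue. Of the 63 members, 49 reached a mean of 10 CPM in at least 1 skin gate and 44 in at least 1 kidney gate. A total of 42 did so in both tissues, and 22 of them had their highest mean in the same gate in skin and kidney.

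**Figure D1:**
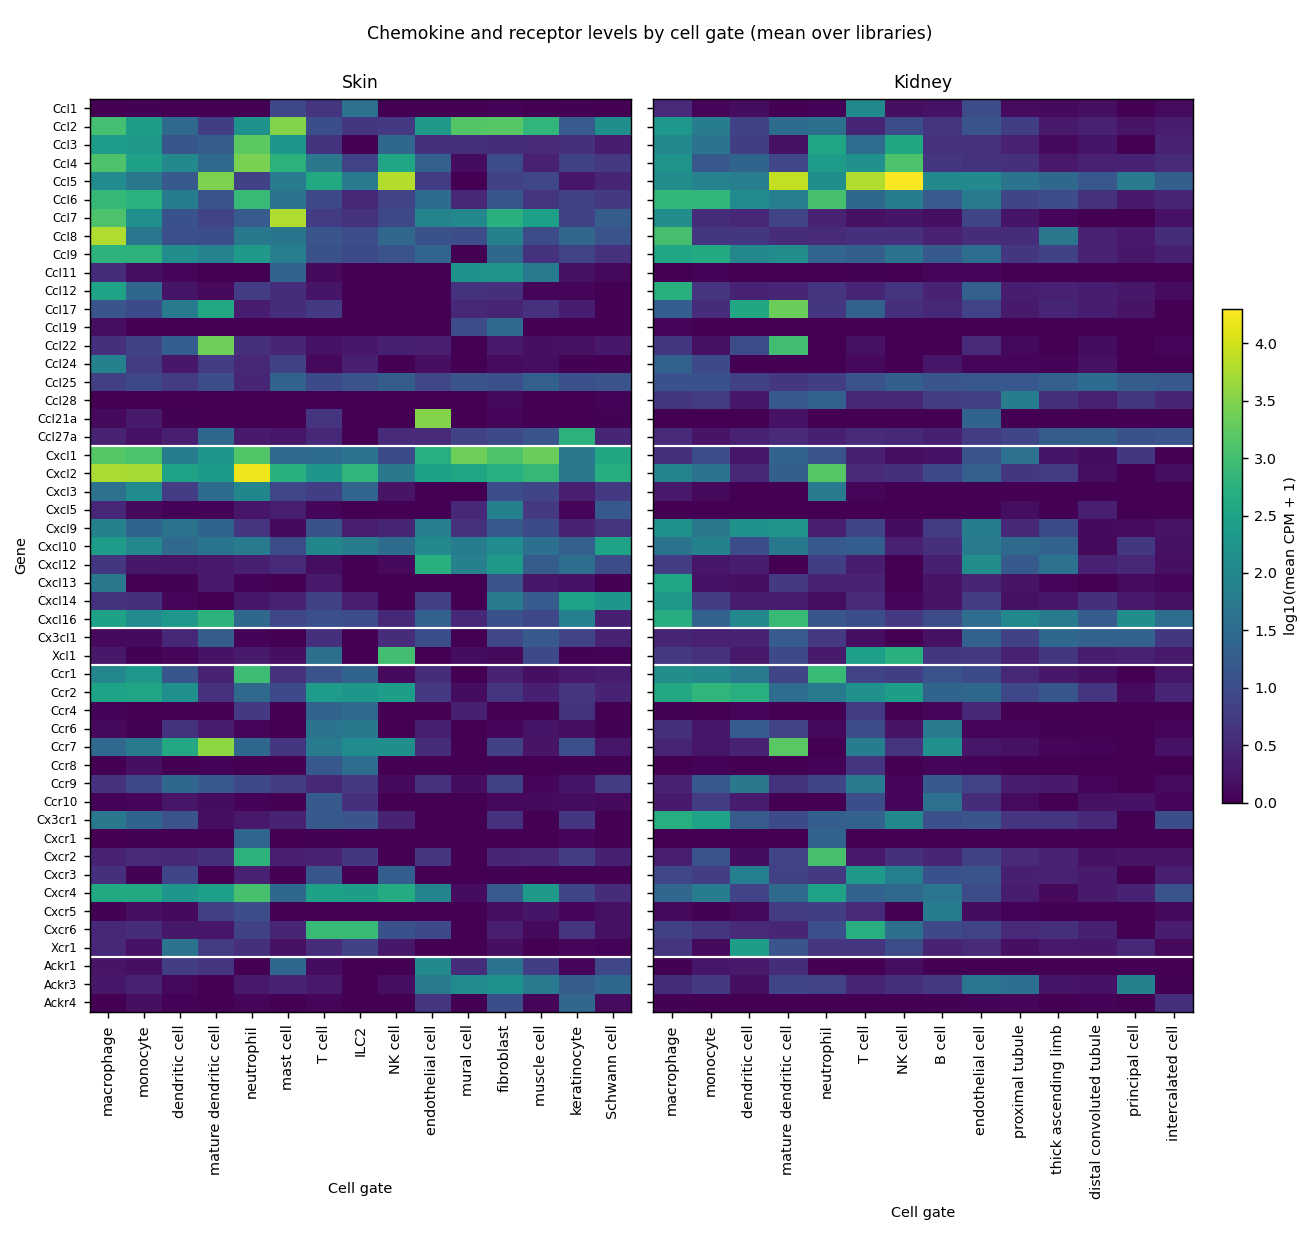
Mean level of the chemokine and receptor genes described here with at least 10 CPM in 1 gate (rows, grouped into CC ligands, CXC ligands, other ligands, receptors and atypical receptors by white lines) in each cell gate with 3 or more libraries (columns), as log10(mean CPM + 1) over the libraries of skin (left) and kidney (right). Cxcl2 in skin neutrophils and Ccl5 in kidney NK cells are the brightest cells of the map, at means of 15620.2 and 18621 CPM.

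In skin, the neutrophil gate carried the highest mean of 8 members and the macrophage gate of 7. Cxcl2 in neutrophils was 4792, 11795 and 35020.5 CPM (lowest, median and highest of 8 libraries). It was also abundant in macrophages, at 5646 ± 2375 CPM (SD, n = 8), and the ranges of the 2 gates overlapped. The receptor for Cxcl1 and Cxcl2, Cxcr2, reached 611 ± 305 CPM (SD, n = 8) in neutrophils and at most 18.9 CPM in a library of any other gate with 3 or more libraries. Ccr1, a receptor for Ccl3 and Ccl5, and Cxcr4, the receptor for Cxcl12, also stood apart in neutrophils, with every library above every library of the other gates (from 532 to 1334 CPM and from 741 to 1943 CPM). The CC ligands Ccl3 and Ccl4 reached 1622 ± 1231 CPM (SD, n = 8) and 2695 ± 1252 CPM (SD, n = 8) in the same cells.

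Macrophages were marked among the members by Ccl8, a ligand of Ccr2 and Ccr8, which ran from 2339.8 to 10634 CPM over the 8 libraries and no higher than 243 CPM in a library of any other gate. Ccl12, another Ccr2 ligand, behaved alike at 304 ± 151 CPM (SD, n = 8) against a mean of 27 CPM in monocytes. Ccl24, an eosinophil attractant, varied widely in macrophages, with 4.16, 41.6 and 247 CPM (lowest, median and highest of 8 libraries). Mast cells had the highest Ccl7 and Ccl2. In that gate Ccl7 ran from 2587 to 12125 CPM, above every library of the other gates, and Ccl2 reached 3189 ± 1367 CPM (SD, n = 7), with the range overlapping that of fibroblasts.

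Mature dendritic cells carried the Ccl19 and Ccl21a receptor Ccr7 at 3751 ± 722 CPM (SD, n = 7), together with the Ccr4 ligands Ccl22 at 2214 ± 1236 CPM (SD, n = 7) and Ccl17 at 396 ± 356 CPM (SD, n = 7). Ccr7 and Ccl22 were above every library of the other gates, and Ccl17 overlapped with dendritic cells. The membrane-bound ligand Cxcl16 was also highest there, at 596 ± 83.7 CPM (SD, n = 7), and its receptor Cxcr6 was highest in T cells and ILC2, at 802 and 775 CPM. Xcr1, the receptor of cross-presenting dendritic cells, reached 44.7 ± 15.5 CPM (SD, n = 8) in dendritic cells, and its ligand Xcl1 1006 ± 866 CPM (SD, n = 6) in NK cells. Both were apart from all other gates. Ccl5 was highest in NK cells at 6264 ± 2497 CPM (SD, n = 6) and overlapped with mature dendritic cells at 2785 ± 1368 CPM (SD, n = 7). The ILC2 gate, with 4 libraries, had the highest means of Ccr6, Ccl1, Ccr8 and Ccr4, at 53.1, 40.3, 32.8 and 29.2 CPM, all overlapping with another gate.

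Ccl21a in endothelial cells ran from 7.23 to 11398 CPM over 7 libraries, with 3533, 5258, 2056 and 11398 CPM in the 4 PBS libraries (SARATg last) and 14.6, 102 and 7.23 CPM in bleomycin 1, bleomycin 3 and SARATg bleomycin. SARAWT bleomycin 2, with 9 cells in the gate, was left out, the bleomycin libraries shown had 13 to 37 cells, and no test was planned. Over all cells Ccl21a was 29.7, 129 and 19.3 CPM after PBS and 0.0431, 41 and 0.54 CPM after bleomycin, and the groups overlapped through bleomycin 2. Cxcl12 was highest in endothelial cells at 544 ± 352 CPM (SD, n = 7), followed by fibroblasts at 213 ± 73.3 CPM (SD, n = 8). Keratinocytes had the highest Ccl27a, the ligand that draws Ccr10-bearing T cells to the epidermis, at 582 ± 332 CPM (SD, n = 8), and Ccr10 itself was highest in T cells at 15.5 ± 6.78 CPM (SD, n = 7). Fibroblasts and mural cells shared the eosinophil attractant Ccl11 at 165 and 155 CPM and the atypical receptor Ackr3, which removes Cxcl12, at 159 and 120.0 CPM. Cxcl1 was abundant in mural cells, muscle cells, fibroblasts and macrophages, at means of 2276, 2177, 1304 and 1453 CPM, with overlapping ranges.

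In kidney, Ccl5 led the members. It ran from 11890.1 to 29531 CPM in NK cells over the 9 libraries and averaged 8054 CPM in mature dendritic cells and 6140.1 CPM in T cells. Kidney T cells carried Cxcr6 and the Cxcl9 and Cxcl10 receptor Cxcr3 at 516 ± 121 CPM (SD, n = 9) and 214 ± 39.4 CPM (SD, n = 9). Cxcr6 was above every library of the other gates, and Cxcr3 overlapped with NK cells. Neutrophils again had Cxcr2 at 1104 ± 281 CPM (SD, n = 9), Cxcl2 at 1461 ± 676 CPM (SD, n = 9) and Ccr1 at 798 ± 215 CPM (SD, n = 9), each apart from the other gates. B cells stood apart in Cxcr5, the receptor for the follicle chemokine Cxcl13, at 62.1 ± 13.5 CPM (SD, n = 9), and dendritic cells in Xcr1 at 261 ± 124 CPM (SD, n = 8). Mature dendritic cells, gated in 4 libraries, had Ccr7 at 1583 ± 240.2 CPM (SD, n = 4) and Ccl17 and Ccl22 at 2143 and 955 CPM.

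Kidney macrophages had the highest means of 9 members, and these varied strongly between libraries. Ccl8 was 24.4, 855 and 2891 CPM (lowest, median and highest of 9 libraries), and Cxcl13 was 0, 173 and 1478 CPM (lowest, median and highest of 9 libraries). Cx3cr1 was steadier at 486 ± 159.9 CPM (SD, n = 9). Cxcl14 was 213 ± 149 CPM (SD, n = 9) in kidney macrophages and no higher than 30.2 CPM in a library of any other kidney gate with 3 or more libraries. The epithelial ligand Ccl28 was highest in the proximal tubule and differed between libraries of 1 group, with 208, 0.501 and 73.5 CPM in SARAWT vehicle 1, 2 and 3. Distal convoluted tubule, thick ascending limb and principal cells had the highest means of Ccl25 (31.3 CPM), of the membrane-bound ligand Cx3cl1 (26 CPM) and of Ackr3 (76.2 CPM), respectively. The fibroblast gate reached 10 cells in 1 kidney library, SARATg vehicle 2, where Cxcl13 was 995 CPM and Ccl11 922 CPM.

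The same cell type was then compared between control tissues. In macrophages, 27 members were tested between SARAWT PBS skin and SARAWT vehicle kidney, 3 libraries each, and 13 passed an adjusted p of 0.05, with 9 higher and 4 lower in skin. The background was high, as 34.2% of all 10261 genes tested passed, and DESeq2 called 11 members against 33.2% of genes. The median log2 fold change was 0.46 over the 27 members and -0.03 over all genes tested. Tissue, treatment route and Cell Ranger version changed together and cannot be told apart. The summed neutrophil markers in the macrophage gate were 254, 297 and 756 CPM in skin and 54.5, 98.9 and 191 CPM in kidney, the dendritic cell markers were 3074, 2478 and 1212 CPM and 889, 961 and 872 CPM, and their part in the values that follow was not tested.

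The neutrophil attractants Cxcl1, Cxcl2 and Cxcl3 were higher in skin. Cxcl1 was 1431, 1736 and 3088 CPM in skin and 1.38, 4.93 and 6.91 CPM in kidney (log2 fold change 8.68, SE 0.66, edgeR adjusted p = 0.000228). Cxcl2 was 5332, 7026 and 10157 CPM in skin and 44.1, 166 and 78.3 CPM in kidney (log2 fold change 6.29, SE 0.58, edgeR adjusted p = 0.000295). For both, every skin library was above every kidney library. Cxcl3 followed at 7.22, 7.2 and 156 CPM against 0, 3.03 and 2.09 CPM (log2 fold change 4.91, SE 1.35, edgeR adjusted p = 0.0234), but it rested largely on the library labelled SARAWT PBS 3. Over 13 alternatives its log2 fold change ran from 1.79 to 5.46. It passed in 7 of them, and its adjusted p ran up to 0.126. The interferon-inducible ligand Cxcl10 was 283, 323 and 332 CPM in skin and 6.21, 18.2 and 32.8 CPM in kidney (log2 fold change 3.90, SE 0.54, edgeR adjusted p = 0.00147). Its relative Cxcl9 was 83.7, 18.7 and 19.3 against 66.9, 53.4 and 252 CPM, so the groups overlapped.

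Among CC ligands, Ccl2 was 1252, 1691 and 1165 CPM in skin and 37.9, 36.8 and 262 CPM in kidney (log2 fold change 3.48, SE 0.80, edgeR adjusted p = 0.0117). Ccl7 was 1670.5, 2257 and 1566 against 12.4, 8.72 and 211 CPM (log2 fold change 4.40, SE 1.16, edgeR adjusted p = 0.0203). Ccl4 was 1645, 2907 and 1431 against 136, 619 and 43 CPM (log2 fold change 2.93, SE 0.82, edgeR adjusted p = 0.025), and Ccl24 was 247, 170.0 and 49.8 against 41.4, 10.2 and 10.1 CPM (log2 fold change 2.97, SE 0.69, edgeR adjusted p = 0.0119). Kidney vehicle 3 held the highest Ccl2 and Ccl7 of the kidney group, and over 13 alternatives the log2 fold change ran from 2.93 to 5.26 for Ccl2 and from 3.75 to 7.53 for Ccl7, highest for both when vehicle 3 and PBS 3 were left out together. Without vehicle 3 alone, 18 members passed, 13 higher and 5 lower in skin, against 35.6% of genes. Ccl4 and Ccl7 lost the threshold in at least 1 of 13 alternatives, with adjusted p up to 0.0808 and 0.0555.

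Receptors moved in both directions. Cxcr4 was 289, 297 and 369 CPM in skin and 24.8, 26.2 and 15.3 CPM in kidney (log2 fold change 3.87, SE 0.30, edgeR adjusted p = 0.000234). Cx3cr1 was 32.2, 24.5 and 27.1 CPM in skin and 468, 491 and 237 CPM in kidney (log2 fold change -3.82, SE 0.32, edgeR adjusted p = 0.000243). The other members lower in skin were Cxcl14 at 1.63, 1.44 and 0.483 against 99.3, 52.3 and 380.4 CPM (log2 fold change -7.31, SE 1.0, edgeR adjusted p = 0.00142), Cxcl16 at 126, 259 and 254 against 488, 549 and 456 CPM (log2 fold change -1.23, SE 0.33, edgeR adjusted p = 0.0215) and Ccl25 at 3.85, 4.32 and 3.14 against 13.8, 14 and 6.62 CPM (log2 fold change -1.61, SE 0.41, edgeR adjusted p = 0.0178). Ccl25 and Cxcl16 missed the threshold in some of 13 alternatives, with adjusted p up to 0.0666 and 0.0534. Ccr2 (239.7, 184 and 293 against 727, 342 and 207 CPM) did not pass.

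**Figure D2:**
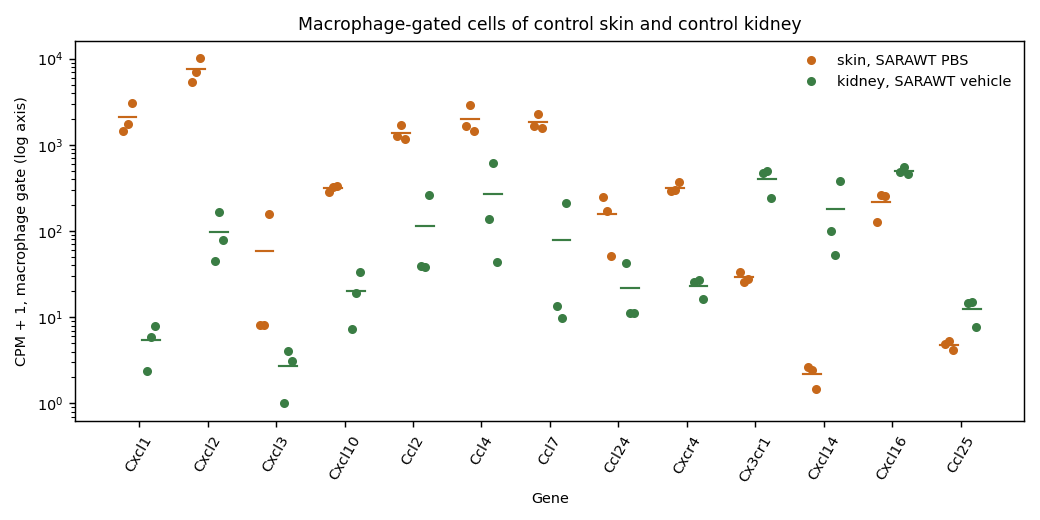
Level of the 13 members that passed the test in macrophages of control skin (orange, 3 SARAWT PBS libraries) and control kidney (green, 3 SARAWT vehicle libraries), as CPM + 1 on a log axis. Points are libraries and bars their means, and the first 9 genes are higher in skin while Cx3cr1, Cxcl14, Cxcl16 and Ccl25 are higher in kidney.

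Genes that act with chemokines, but lie outside the symbol rule, were read from a list of 80. In the macrophage comparison 71 were tested and 23 were higher and 14 lower in skin, to be read against the 34.2% of all genes called in this comparison. Inducers of chemokine transcription and their receptors gave 9 higher and 1 lower of 15 tested, including Tnf (427 against 17.4 CPM), Il6 (70.8 against 0.192 CPM), the NF-κB subunit gene Nfkb1 (672 against 85.9 CPM) and the NF-κB inhibitor gene Nfkbia (1963 against 236 CPM), all higher in skin, and Ifngr1 (129.5 against 338 CPM), lower. Of the 12 partner genes tested, 4 were higher and 4 lower, with the platelet chemokine gene Pf4 at 2317 against 280.4 CPM, the chemerin-binding receptor gene Ccrl2 at 150.5 against 21.5 CPM and the chemokine-cleaving peptidase gene Dpp4 at 2.51 against 37.3 CPM. Of the 23 downstream signaling genes tested, 4 were higher and 6 lower, and of the 9 adhesion genes, 2 and 2, with Icam1 at 279 against 32.9 CPM. In every other comparison described here, none of the 54 to 80 listed genes tested passed edgeR's adjusted threshold at the main setting. Fits with the replicate block or with libraries left out were not read for these genes.

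Bleomycin was compared with PBS in SARAWT skin, which asks how the members change in a model of skin fibrosis. Over all cells, none of 52 members tested passed, against 0% of 15335 genes, while the unadjusted p was below 0.05 for 13 members (18.3% of genes) and 12 were called by DESeq2 (8.64% of genes). The median log2 fold change was 0.19 over the members tested and 0.01 over all genes tested. In skin, bleomycin 3 deviated together with PBS 3. Replicates 1 and 2 were not told apart as pairs over all cells or in macrophages, and replicate 3 differed from them in Cell Ranger version and gene list. The fit with the replicate number as a block is given too, with this limit on its p-values. It called 9 members, 5 higher and 4 lower, against 3.81% of genes. Without the library labelled SARAWT PBS 3, 8 members passed, 4 higher and 4 lower, against 6.21% of genes. Sums over all cells follow both the number of cells of a type and the RNA per cell, which cannot be told apart.

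The receptors Cx3cr1, Ccr2 and Cxcr4 were among 6 of the 52 members that were higher over all cells in each bleomycin library than in any PBS library, as were 6.28% of all genes. Cx3cr1 was 16.1, 9.47 and 9.8 CPM after PBS and 38.3, 28.4 and 24.4 CPM after bleomycin (log2 fold change 1.5, SE 0.26, edgeR adjusted p = 0.0616, and 0.0197 with the block). Cxcr4 was 155, 152 and 235 against 313, 322 and 389.5 CPM (log2 fold change 1.04, SE 0.25, edgeR adjusted p = 0.0992, and 0.0349 with the block). Ccr2 was 136, 102 and 139 against 201, 242 and 202 CPM (log2 fold change 0.91, SE 0.19, edgeR adjusted p = 0.0813) and was not called with the block. The block also called Ccr9, Ccl12 and Cxcl9 as higher, that is the gut-homing receptor, a Ccr2 ligand and an interferon-γ-inducible ligand of Cxcr3, with log2 fold changes of 1.22, 1.47 and 1.01. Each of them overlapped between groups. Ccr9 was 3.47, 2.75 and 38.5 against 5.25, 8.98 and 88.9 CPM. Ccl12 was 91.1, 47.1 and 15 against 154, 157 and 42.9 CPM, and Cxcl9 was 51.5, 45.5 and 12.4 against 78.9, 94.2 and 24.15 CPM. The 10 monocyte markers summed over all cells were 656, 687 and 1181 CPM after PBS and 1322, 1261 and 1618 CPM after bleomycin, higher without overlap, and their part in these values was not tested.

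The atypical receptor Ackr1, which carries chemokines across venular endothelium, was 12.2, 16.2 and 14.9 CPM after PBS and 1.59, 1.93 and 2.28 CPM after bleomycin (log2 fold change -2.75, SE 0.27, edgeR adjusted p = 0.0524, and 0.0183 with the block). The scavenger Ackr2 was 1.08, 1.22 and 1.03 against 0, 0.0921 and 0.0169 CPM, Ackr3 was 48, 105 and 20.7 against 15.7, 10.1 and 8.49 CPM and Ackr4 was 5.62, 7.33 and 2.23 against 0.431, 2.03 and 1.06 CPM. For all 4 atypical receptors the bleomycin libraries lay below the PBS libraries, which was the case for 7 of the 52 members and for 17.4% of all genes, and the block called Ackr1 and Ackr2. The same held for Cxcl14 at 45.7, 47.1 and 48.8 against 25.6, 10.8 and 11.9 CPM and for Ccl27a at 25.2, 47.4 and 22.8 against 6.16, 13.9 and 14.9 CPM, neither of which was called. Ccl19 and Ccl11 were called as lower with the block, at log2 fold changes of -2.62 and -1.13, and both overlapped between groups. Ccl19 was 18.7, 16.5 and 1.3 against 2.24, 2.3 and 0.253 CPM, and Ccl11 was 50.1, 95.7 and 10.4 against 22, 27.7 and 5.74 CPM. The fibroblast gate held 14.4, 13.8 and 7.53% of cells after PBS and 4.97, 6.64 and 1.66% after bleomycin, and the endothelial gate 1.79, 1.92 and 1.32% against 0.603, 0.415 and 0.565%. The keratinocyte gate, the highest skin gate of Ccl27a, Cxcl14 and Ackr4, held 3.21, 2.3 and 6.92% against 1.39, 2.12 and 0.932%, without overlap. The part of these shares in the all-cell values was not tested.

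Within macrophages, 1 of 34 members passed, against 0.221% of 10849 genes, and DESeq2 called 4 (3.34% of genes). The unadjusted p was below 0.05 for 14 of the 34 members and for 1515 of the 10849 genes. The member that passed was Cx3cr1, at 32.2, 24.5 and 27.1 CPM after PBS and 112, 86.5 and 73.4 CPM after bleomycin (log2 fold change 1.77, SE 0.22, edgeR adjusted p = 0.0296). It rose in all 15 alternatives, with log2 fold changes from 1.61 to 1.96, but its adjusted p passed in 9 of them and reached 0.213. It did not pass when PBS 1, PBS 2, bleomycin 1 or bleomycin 2 was left out, when barcodes shared between libraries were left out, or without PBS 1 and PBS 3 together, a fit with PBS 2 as its only control library. With the block, 7 members passed, against 3.65% of genes, 4 higher and 3 lower, and without PBS 3 alone 5 passed, 3 higher and 2 lower, against 5.18% of genes.

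The other members called in macrophages with the block were Cxcr4 (289, 297 and 369 against 559, 498 and 532 CPM, log2 fold change 0.83, SE 0.18, edgeR adjusted p = 0.0464), Cxcl13 (37.2, 28.8 and 1.21 against 70.0, 235 and 26.6 CPM) and Cxcl14 (1.63, 1.44 and 0.483 against 15.1, 1.04 and 3.82 CPM) as higher. Ccl24 (247, 170.0 and 49.8 against 4.16, 33.3 and 5.68 CPM, log2 fold change -3.59, SE 0.56, edgeR adjusted p = 0.0178), Ccl7 (1670.5, 2257 and 1566 against 689, 1201 and 854 CPM, log2 fold change -0.93, SE 0.17, edgeR adjusted p = 0.027) and Cxcl1 (1431, 1736 and 3088 against 591, 860.0 and 1622 CPM, log2 fold change -0.98, SE 0.17, edgeR adjusted p = 0.0221) were lower. Cxcr4, Ccl24 and Ccl7 did not overlap between groups, whereas Cxcl1 did, with bleomycin 3 at the level of PBS 1 and 2. Cxcl13 also overlapped, with bleomycin 3 below PBS 1 and 2. Cxcl14 overlapped too, and it was lower in bleomycin 2 (1.04 CPM) than in PBS 2 (1.44 CPM). Ccl8, the member with the highest mean in macrophages over the 8 skin libraries, was 9602, 8885 and 2418 CPM after PBS and 6169, 10634 and 2989 CPM after bleomycin, with replicate 3 lowest in both groups. Replicate 3 also differed in Cell Ranger version and gene list from replicates 1 and 2. The summed level of the 10 monocyte markers in macrophages was 423, 569 and 1333 CPM after PBS and 1558, 1597 and 1595 CPM after bleomycin. In the same gate the dendritic cell markers were 3074, 2478 and 1212 against 722, 1245 and 840 CPM, the keratinocyte markers 125, 21.6 and 108 against 12.3, 16 and 8.92 CPM and the markers of group 2 innate lymphoid cells 117, 108 and 257 against 24.1, 57 and 104 CPM. The monocyte sum was higher, and the keratinocyte and lymphoid sums lower, without overlap, and the part of these sums in the differences was not tested.

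In dendritic cells none of 30 members passed by edgeR, DESeq2 or with the block, against 0% of genes without the block and 0.367% with it, and 4 had an unadjusted p under 0.05, as did 14.6% of genes. In T cells, where SARAWT PBS 2 had too few cells, none of 32 members passed, against 0% of 9350 genes, with 9 at an unadjusted p under 0.05 (5.65% of genes) and 3 called by DESeq2 (0.631% of genes). The block, which leaves replicates 1 and 3, called 3 members against 0.897% of genes, and 1 member passed without PBS 3, against 0.107% of genes. The fit without PBS 3 has PBS 1 as its only control library, and it takes the spread from the bleomycin libraries and assumes that the lone control varies like them. The block fit leaves out bleomycin 2 as well and has 1 residual degree of freedom, so its p-values rest on very little spread. Xcl1 was 64.2 and 68.4 CPM in PBS 1 and 3 and 12.1, 14.7 and 21.9 CPM after bleomycin (log2 fold change -1.83, SE 0.29, edgeR adjusted p = 0.00962 with the block, without bleomycin 2). Over all cells Xcl1 ran the other way, at 3.29, 2.75 and 13.4 against 20.0, 29.6 and 16.1 CPM. Ccl20, the Ccr6 ligand, was 0 and 0.29 CPM in PBS 1 and 3 and 17.1, 10.3 and 12.1 CPM after bleomycin, and Cxcl2 was 87.9 and 108 against 302, 159.6 and 256 CPM. Beside Cxcl2, the summed neutrophil markers in the T cell gate were 187 and 141 CPM against 270.1, 187 and 242 CPM. In the same gate and order the macrophage markers were 35.6 and 17.7 against 57.5, 114 and 40.5 CPM, the monocyte markers 76 and 128 against 135, 179 and 262 CPM and the T cell markers 3405 and 4380.4 against 5467, 5704 and 5304 CPM, all higher after bleomycin without overlap. The mast cell markers, at 28.5 and 41.7 against 5.04, 9.53 and 14 CPM, and the keratinocyte markers, at 98.6 and 306 against 30.2, 73.1 and 44.1 CPM, were lower. The part of these sums in the T cell values was not tested.

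In fibroblasts none of 28 members passed, against 0% of 10377 genes, with 8 at an unadjusted p under 0.05 (22.7% of genes) and 3 called by DESeq2 (6.18% of genes). The block called 4 of the 28 members, 1 higher and 3 lower, against 6.92% of genes. Ackr1 was 31.2, 58.2 and 64.8 CPM after PBS and 1.66, 24.1 and 16.9 CPM after bleomycin (log2 fold change -2.19, SE 0.43, edgeR adjusted p = 0.0441 with the block), and Ccl19 was 70.3, 66.3 and 11.4 against 19.1, 32.8 and 5.32 CPM. Cxcl13 was 34.9, 37.9 and 3.29 against 0.83, 8.03 and 0 CPM, and Ccl9 6.06, 35.2 and 10.4 against 24.5, 52.5 and 46.4 CPM. Cxcl14 (84.7, 89.3 and 103 against 51.9, 16.8 and 14.5 CPM) and Ackr3 (162, 433 and 155 against 81.8, 106 and 98.2 CPM) did not overlap but were not called. The inflammatory ligands Ccl2 and Cxcl1 overlapped, at 888, 2427 and 1497 against 2361, 1589.5 and 1183 CPM and 878, 2396 and 1402 against 1414, 1711 and 1061 CPM. Beside these, the summed markers of other types in the fibroblast gate were 71, 94.7 and 66.1 against 28.6, 54 and 59 CPM for endothelial cells, 364, 179.9 and 232 against 111, 147 and 87.5 CPM for macrophages and 150.1, 78.5 and 64.8 against 15.4, 45.2 and 28 CPM for T cells. All 3 sums lay lower after bleomycin without overlap, and their part in the results was not tested.

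**Figure D3:**
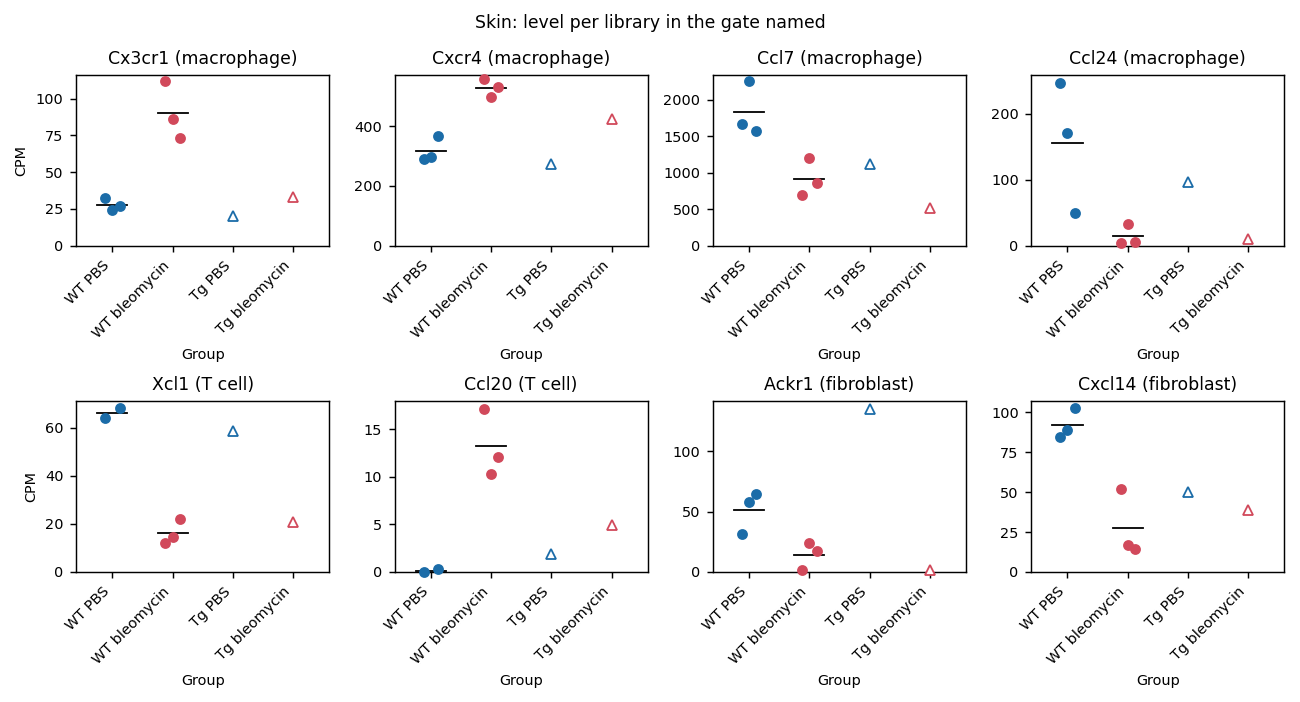
Level in CPM of 8 gene and gate pairs in each skin library, with SARAWT libraries as filled circles (bar, mean), SARATg libraries as open triangles, PBS in blue and bleomycin in red. Cx3cr1 and Cxcr4 in macrophages and Ccl20 in T cells are higher in all 3 SARAWT bleomycin libraries, and Ccl7, Ccl24, Xcl1, Ackr1 and Cxcl14 are lower.

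The SARATg skin groups had 1 library each, so their values have no replicate check and intervals cover counting error only. Summed over all members, the level was 8635, 10291 and 7379 CPM in the SARAWT PBS libraries and 8111, 9453 and 9265 CPM in the SARAWT bleomycin libraries, and 3441 and 5772 CPM in the SARATg PBS and bleomycin libraries. Of 35 members with a mean of 10 CPM over the PBS libraries, 16 were below all 3 SARAWT libraries in the SARATg PBS library and 2 above, against 31.4% and 14.2% of 8438 genes at that level. Of 36 in the bleomycin groups, 15 were below and 6 above, against 17.3% and 35.1% of 8018 genes. Over all cells Ccl8 was 363 CPM (95% Poisson interval 358 to 368) in the SARATg PBS library and 444 CPM (95% Poisson interval 439 to 449) in the SARATg bleomycin library. In SARAWT replicates 1, 2 and 3 it was 2547, 1934 and 219 CPM after PBS and 2030, 2846 and 531 CPM after bleomycin. Of these, only replicate 3 shares its Cell Ranger version and gene list with the SARATg libraries. Ackr1 was 49.6 CPM (95% Poisson interval 47.8 to 51.5) in the SARATg PBS library and 1.13 CPM (95% Poisson interval 0.894 to 1.41) in the SARATg bleomycin library. The macrophage gate held 7.73% of cells in the SARATg PBS library and 27.8, 15.9 and 8% in the SARAWT PBS libraries. It held 18.6% in the SARATg bleomycin library, within the 30.8, 24.3 and 13.7% of the SARAWT bleomycin libraries. The part of the macrophage share in the lower sums was not tested.

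Within macrophages the SARATg libraries gave Cx3cr1 at 19.9 CPM (95% Poisson interval 15.5 to 25.1) after PBS and 32.9 CPM (95% Poisson interval 29.8 to 36.3) after bleomycin, both below the SARAWT libraries of the same treatment. Cxcr4 was 275 CPM (95% Poisson interval 258 to 293) and 425 CPM (95% Poisson interval 414 to 437), and Ccl7 was 1116 CPM (95% Poisson interval 1082 to 1151) and 512 CPM (95% Poisson interval 499.8 to 525). The order of the PBS and bleomycin values for these genes was that of the SARAWT groups, and the difference between genotypes was not tested. In T cells Xcl1 was 58.8 and 20.6 CPM in the SARATg PBS and bleomycin libraries.

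Aristolochic acid was compared with vehicle in SARAWT kidney, a model of toxic tubular injury. With all 6 libraries none of 46 members passed over all cells, against 0% of 16055 genes, and the unadjusted p was below 0.05 for 7 members (7.56% of genes) while DESeq2 called none. The median log2 fold change was 0.98 over the members tested and -0.03 over all genes tested, and in the proximal tubule it was 1.73 and -0.01. Vehicle 3 decided this count. Summed over members, the level was 492, 480.3 and 4973 CPM in vehicle 1, 2 and 3 and 6651, 3193 and 6079 CPM in aristolochic acid 1, 2 and 3, and T cells were 2.86, 3.67 and 43.3% against 50.1, 42.2 and 58.4% of cells. Without vehicle 3, 30 of 47 members passed, 29 higher and 1 lower, against 22.1% of genes, and without vehicle 3 and the library labelled SARAWT aristolochic acid 1, 18 passed, 16 higher and 2 lower, against 5.57% of genes. The first belonged to the planned fits that left out each library in turn, but vehicle 3 was singled out after its values were seen. Leaving out the vehicle library nearest to the treated ones favours calls. Values without vehicle 3, here and below, are therefore a description and no independent test. The second setting was chosen after the data were seen.

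Ccl5, Cxcr6, Cxcr3 and Xcl1, whose highest kidney means were in NK or T cells, were among the 10 members that lay without overlap above the vehicle libraries (11.4% of all genes tested), and none passed with all 6 libraries. Ccl5 was 109, 86.4 and 1780.2 CPM in the vehicle libraries and 2743, 1933 and 3199 CPM after aristolochic acid (log2 fold change 1.89, SE 1.21, edgeR adjusted p = 0.497, and 0.00724 without vehicle 3). Cxcr6 was 8.46, 12.7 and 85.1 against 171, 162 and 221 CPM (log2 fold change 2.28, SE 0.90, edgeR adjusted p = 0.481, and 0.00573 without vehicle 3). Cxcr3 was 3.36, 6.29 and 54.1 against 74.1, 64.9 and 100.1 CPM, and Xcl1 3.32, 5.47 and 46.7 against 105, 119 and 193 CPM. Vehicle 3 was the vehicle library nearest to the treated ones in each. Within T cells the levels were closer, with Cxcr6 at 701, 667 and 369 against 549.7, 543 and 486 CPM and Ccl5 at 8134, 2647 and 6739 against 8219, 6278 and 6902 CPM, and the groups overlapped.

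The monocyte and macrophage ligands overlapped between groups through vehicle 3. Ccl8 was 0.381, 0.68 and 577 CPM in the vehicle libraries and 573, 90.1 and 358 CPM after aristolochic acid, Ccl2 was 0.739, 2.34 and 70.8 against 86.3, 12.6 and 74.7 CPM and Ccl12 was 1.21, 6.63 and 213 against 169, 49.2 and 104 CPM. Vehicle 3 had the highest Ccl8 and Ccl12 of the 6 libraries. Ccl27a was the 1 member that lay without overlap below the vehicle libraries (3.56% of genes), at 8.58, 12.4 and 7.64 against 6.54, 1.65 and 0.888 CPM, and it was not called. Cxcl12, the 1 member called as lower without vehicle 3, was 17.9, 15.7 and 3.3 against 3.71, 4.4 and 2.85 CPM, overlapping through vehicle 3 (log2 fold change -1.89, SE 0.66, edgeR adjusted p = 0.481, and 0.0128 without vehicle 3). The proximal tubule gate, the most abundant gate of vehicle 1 and 2, held 81.6, 71.2 and 16.4% of vehicle cells and 8.23, 33.4 and 12.8% of treated cells.

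**Figure D4:**
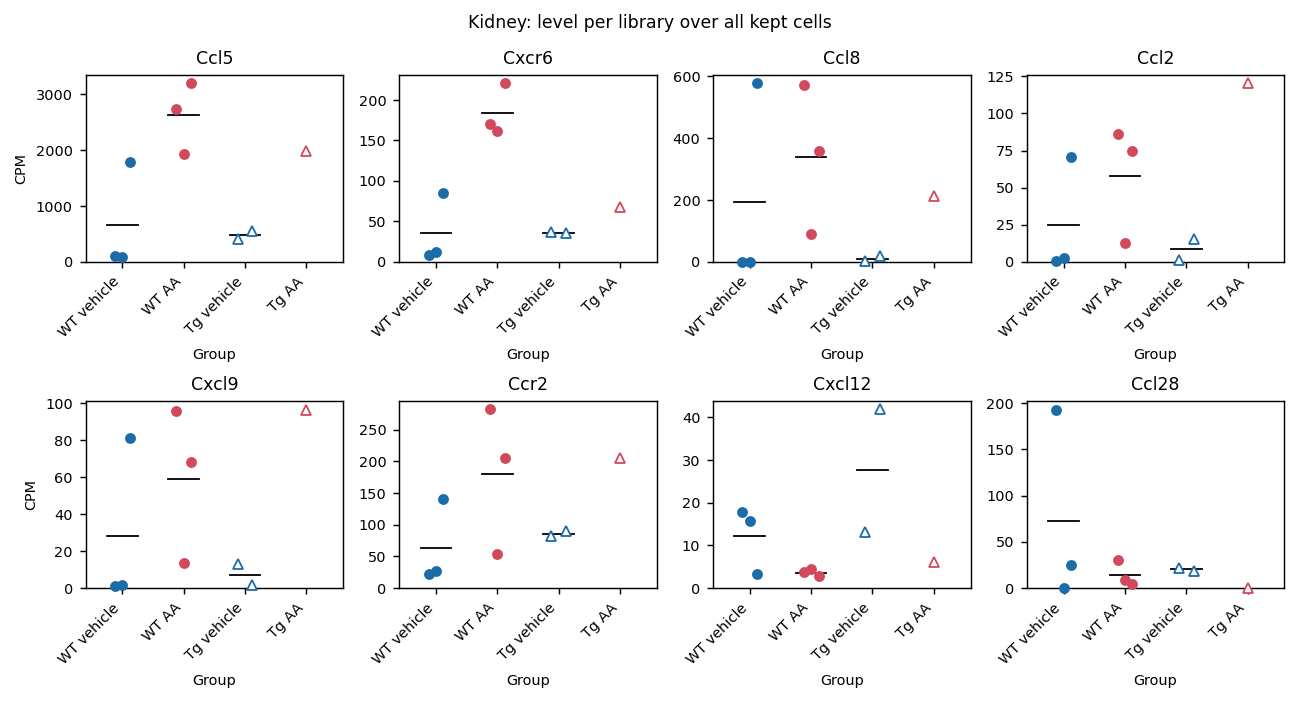
Level in CPM over all kept cells of 8 members in each kidney library, with SARAWT libraries as filled circles, SARATg libraries as open triangles, bars as means of groups with more than 1 library, vehicle in blue and aristolochic acid (AA) in red. The SARAWT vehicle library far from the other vehicle libraries in Ccl5, Cxcr6, Ccl8, Ccl2, Cxcl9 and Ccr2 is vehicle 3.

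Within kidney macrophages none of 33 members passed, against 0% of 11034 genes, with 2 at an unadjusted p under 0.05 (6.18% of genes) and none called by DESeq2. Without vehicle 3, 7 of 29 passed, 6 higher and 1 lower, against 7.56% of genes. Ccl8 was 34.5, 26.2 and 2567 CPM in vehicle 1, 2 and 3 and 2891, 1008 and 2202 CPM after aristolochic acid (log2 fold change 6.14, SE 0.55, edgeR adjusted p = 0.00854 without vehicle 3). Ccl2 was 37.9, 36.8 and 262 against 319, 145 and 419.8 CPM, Ccl7 was 12.4, 8.72 and 211 against 312, 43.5 and 224 CPM and Ccr1 was 24.8, 37.5 and 216 against 279, 121 and 229 CPM. Vehicle 3 lay among the treated libraries in all 4. Cxcl10 was 6.21, 18.2 and 32.8 against 72, 41.2 and 62.2 CPM, and here all treated libraries were above vehicle 3 as well, without passing in the comparison of all 6 libraries (edgeR adjusted p = 0.754). In the same gate the summed monocyte markers were 238, 188 and 607 against 809, 462 and 784 CPM and the T cell markers 2.76, 15.2 and 64.7 against 92.6, 80.2 and 108 CPM, with vehicle 3 the highest of the vehicle libraries in both, and their part in these values was not tested. Cxcl13 overlapped, at 3.45, 159.9 and 538 against 1478, 235 and 541 CPM.

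In endothelial cells, where aristolochic acid 3 had too few cells, none of 14 members passed, against 0% of 8501 genes, with 3 at an unadjusted p under 0.05 (4.93% of genes) and 2 called by DESeq2 (0.553% of genes). Without vehicle 3, Cxcl9, Ackr3 and Ccl6 passed as higher, against 3.09% of genes. Cxcl9 was 2.97, 8.64 and 18.8 CPM in the vehicle libraries and 86.9 and 299 CPM in aristolochic acid 1 and 2, and Cxcl12 was 46, 53.6 and 28.2 against 88.9 and 707 CPM. The second value of each treated pair comes from a gate of 20 cells. Over all cells Cxcl12 overlapped between groups, and with all libraries it passed neither there nor in endothelial cells. The summed podocyte markers in the endothelial gate were 166, 188 and 243 CPM in the vehicle libraries and 372 and 1697 CPM in aristolochic acid 1 and 2, and their part in the Cxcl12 values was not tested. In the proximal tubule none of 31 members passed, against 0% of 12592 genes, with 11 at an unadjusted p under 0.05 (8.72% of genes) and 3 called by DESeq2 (0.566% of genes), and without vehicle 3, 7 of 34 passed, 6 higher and 1 lower, against 2.72% of genes. Cxcl16 was 19.1, 49.1 and 122 CPM in vehicle 1, 2 and 3 and 161, 134 and 219 CPM after treatment (log2 fold change 2.20, SE 0.39, edgeR adjusted p = 0.0476 without vehicle 3). Cxcl12 was 18.7, 17.7 and 6.43 against 6.1, 4.81 and 7.26 CPM. Ccl5 was 5.03, 5.54 and 22.9 against 85.7, 26.7 and 70.6 CPM. Beside it, the summed level of the 10 T cell markers in the tubule gate was 21.8, 25 and 26.9 CPM against 54.3, 58.8 and 91.8 CPM, and its part in the tubular values of leukocyte genes was not tested.

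SARATg and SARAWT kidneys were compared after vehicle, with 2 and 3 libraries. None of 48 members passed over all cells, against 0% of 16424 genes, with 1 at an unadjusted p under 0.05 (2.5% of genes). In macrophages none of 28 passed, against 0% of 10417 genes, with 2 at an unadjusted p under 0.05 (3.2% of genes). DESeq2 called none in either. Over all cells Cxcr5 was 0.313, 0.28 and 1.31 CPM in the SARAWT and 5.49 and 4.57 CPM in the SARATg vehicle libraries, and the B cell gate held 1.11, 0.33 and 2.27% against 11.2 and 13.2% of cells. In macrophages Cx3cr1 was 468, 491 and 237 CPM in the SARAWT and 712 and 715 CPM in the SARATg libraries (log2 fold change 0.80, SE 0.30, edgeR adjusted p = 0.994), and Cxcl13 was 3.45, 159.9 and 538 against 0 and 2.05 CPM. Vehicle 3 lowered the SARAWT values of the first and raised those of the second.

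The library labelled SARATg aristolochic acid 1 is given beside the others without a test. Of 32 members with a mean of 10 CPM over it and the SARAWT treated libraries, 19 lay within the range of the 3 SARAWT libraries over all cells, 4 below and 9 above, against 10.3% below and 31% above of 8820 genes. Ccl5 was 1988 CPM (95% Poisson interval 1976 to 1999), Cx3cr1 156 CPM (95% Poisson interval 153 to 159.6) and Ccl2 120.3 CPM (95% Poisson interval 118 to 123). Its members summed to 4417 CPM, above the SARATg vehicle libraries at 1035 and 1546 CPM. That sum lay within the range of the SARAWT treated libraries, at 6651, 3193 and 6079 CPM.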

How the data were processed

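Single-cell libraries were made by the authors with the 10x 3′ v3 protocol and counted against mm10 with Cell Ranger, and the deposited matrices hold raw UMI counts per gene and cell. The processing notes name Cell Ranger 3.0.2 and Seurat 2.3.4, while the matrix headers name 3.0.2 in kidney, and 4.0.0 (skin SARAWT PBS and bleomycin 1 and 2) or 3.1.0 in skin. Genes were joined by Ensembl ID over 2 gene lists of 32286 and 31053 entries. Cells were kept if 200 or more genes were detected and mitochondrial counts did not exceed 20% (skin) or 50% (kidney). A cell was assigned to a type with at least 3 of its 10 markers and at least 2 more than of any other type, and no doublet caller was run, so doublets may remain in the gates. Counts were summed per library and gate and tested by the edgeR (4.0.16) quasi-likelihood test with TMM scaling, filterByExpr and Benjamini-Hochberg adjustment over all genes tested, at 0.05. Fits were tested on simulated data. CPM were computed from the summed counts. Alternatives were DESeq2 (1.42.0), RLE scaling, no filter on low counts, stricter cells (500 genes, 10% or 25% mitochondrial counts), a stricter gate (4 markers, margin 3), shared barcodes left out, the replicate number as a block, the gene list as a covariate, each library left out in turn and, chosen after seeing the data, libraries in doubt left out. Named members were, per comparison, those past the threshold, then those of highest mean CPM, up to 30. Members whose groups did not overlap or whose call turned on an alternative are also named, and were chosen after their values were seen. Positions follow GENCODE vM21 (GRCm38). The values of 1 of the 63 genes are not reported here, though it enters the counts. The members, the marker lists and the list of 80 pathway genes were chosen with earlier results of these data known.

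Pairing by replicate number was checked by correlating the deviations of log2 CPM from group means. In skin, same-numbered SARAWT PBS and bleomycin libraries correlated at 0.257, 0.129 and 0.527 over all cells and at 0.199, 0.231 and 0.471 in macrophages, so the numbers were taken as pairs. Replicates 1 and 2 were not told apart as pairs, since bleomycin 1 with PBS 2 and bleomycin 2 with PBS 1 correlated at 0.213 and 0.187 over all cells and at 0.0674 and 0.263 in macrophages. Replicates 1 and 2 of both groups also share a gene list and barcodes. In kidney the first pair correlated at -0.393 over all cells, so the numbers were not taken as pairs there.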

Additional observations from a re-analysis of the deposited data

Results flagged for a closer look

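Over all cells of skin, Xcl1 was higher in each SARAWT bleomycin library (20.0, 29.6 and 16.1 CPM) than in any SARAWT PBS library (3.29, 2.75 and 13.4 CPM), whereas the SARATg bleomycin library was lower (5.79 CPM) than the SARATg PBS library (6.66 CPM). Among members with at least 10 CPM in 1 group, it was the only one whose SARAWT groups did not overlap while the SARATg values lay in the opposite order. Overlap could not be judged in SARATg, where the values were close. The difference between genotypes was not tested, since each SARATg group is 1 library, and the library labelled SARAWT PBS 3 held the highest PBS value. Within T cells Xcl1 was lower after bleomycin in both genotypes, at 58.8 and 20.6 CPM in the SARATg PBS and bleomycin libraries. The NK cell markers, of the gate with the highest Xcl1, were 10.0, 42.8 and 65.9 CPM over all cells after PBS and 58.4, 68 and 88.1 CPM after bleomycin in SARAWT skin, and 19.1 and 14.9 CPM in SARATg skin, and their part in the all-cell values was not tested. No group held the 4 samples needed to look for a single library far from the rest.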

How the results depend on the processing

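Counts of members called are given with the count at the main setting first and, in parentheses, the share of all genes called where the text has not yet given it, and the cause of each change was not tested. In SARAWT skin, bleomycin against PBS, all cells gave 0, and 12 by DESeq2, 3 without the filter on low counts (1.5%), 9 with the replicate block and 10 with the gene list as covariate (5.41%). Leaving out 1 library gave 0 to 8, the 8 without PBS 3. Macrophages gave 1, and 4 by DESeq2, 3 without the filter (2.12%), 0 without shared barcodes, 7 with the replicate block, 6 with the gene list as covariate (4.53%) and 0 without PBS 1 and 3 together. Leaving out 1 library gave 0 to 5. T cells gave 0, and 3 by DESeq2, 7 without the filter (1.41%), 3 with the block, 2 with the gene list (0.781%) and 0 to 1 with 1 library left out. Fibroblasts gave 0, and 3 by DESeq2, 7 without the filter (3.64%) and 4 with the block. In kidney, aristolochic acid against vehicle, all cells gave 0, and 18 without vehicle 3 and aristolochic acid 1, and 0 to 30 with 1 library left out. Macrophages gave 0, 5 (4.55%) and 0 to 7 in the same order. Endothelial cells gave 0, and 2 by DESeq2, 6 without the filter (1.53%), 4 with the replicate block (3.65%), 2 without the libraries in doubt (2.38%) and 0 to 3 with 1 library left out. Fits of skin without PBS 1 and 3, of skin T cells without PBS 1 or 3, and of kidney endothelial cells without aristolochic acid 1 or 2 or without the libraries in doubt have 1 library in an arm, which is assumed to vary like the other group. The proximal tubule gave 0, and 3 by DESeq2 and 0 to 7 with 1 library left out. Between skin and kidney macrophages 13 became 21 without the filter (21.7%) and 12 to 18 with 1 library left out (23.4 to 35.6%). Dendritic cells of skin and both SARATg comparisons in kidney gave 0 in every alternative run. The replicate numbers did not pair in kidney, and the block changed no other kidney count. In kidney endothelial cells the block fit holds replicates 1 and 2 only, the same libraries as without vehicle 3. Its count is likewise a description and no independent test. That fit and the block fit of skin T cells, with replicates 1 and 3 only, leave 1 residual degree of freedom each. Of the 1221 alternative values of the 90 log2 fold changes with an unadjusted p under 0.05, 1092 kept direction and side of the threshold, 110 passed it and 18 lost it. Cxcl10 in kidney endothelial cells, 3.17 with all libraries, ran from -0.34 (without aristolochic acid 1) to 3.79 (without aristolochic acid 2) with 1 library left out. Groups of 3 libraries, small gates, the 3 labels that mouse Zfyve9 went against and the human ZFYVE9 counts in 4 other libraries labelled SARAWT, which leave 1 SARAWT skin library without such a sign, limit all comparisons.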
